A study of Oryctolagus cuniculus with 6 samples.

Results

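The miR-199a and miR-214 microRNAs (miRNAs) were followed in hypertrophic scar tissue of the rabbit ear. They were taken from the deposited table by name, as every row that is miR-199a, miR-199b or miR-214 once the species prefix, copy number and arm are removed. Of 467 mature miRNAs, 4 met this rule, namely ocu-miR-199a-3p, ocu-miR-199a-5p, ocu-miR-214-3p and ocu-miR-214-5p. The rule itself used names alone and no measured value, but it was chosen with earlier results of these data known. The scars had formed over full-thickness ear wounds in female rabbits of the New Zealand White breed and were sampled on day 21. In the ADSC-Exos group (3 libraries) the wounds received exosomes, small vesicles shed by stem cells of adipose tissue, dosed at 100 µg in 2 ml, and in the saline group (3 libraries) they received saline. The design text limits the applications to the first 3 days, while the sample labels speak of 21 days. It assigns 3 rabbits to each group but does not tie a library to a rabbit, so p-values cover only the spread between these libraries, which may be technical.

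A miRNA hairpin is cut into a 5p and a 3p arm, and usually the arm that is loaded into an Argonaute protein guides the repression of messenger RNAs. In mouse and human, miR-199a-2 and miR-214 are made from a shared long transcript, DNM3OS, which runs antisense to an intron of DNM3, and in the mouse embryo the transcription factor TWIST1 drives it. The pair is known from mesenchymal cells such as fibroblasts, the collagen-producing cells of a scar. In the RefSeq annotation of rabbit assembly mOryCun1.1, the genes MIR199A-2 and MIR214 lie on chromosome 7. Both fall within the span of DNM3 and of the long non-coding RNA LOC108177642. A further hairpin gene, MIR199A-1, lies within the span of DNM2 and of the long non-coding RNA LOC138845713. The deposited rows carry no hairpin number, so miR-199a reads cannot be divided between MIR199A-1 and MIR199A-2.

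Values were in CPM, which counts the reads of a miRNA relative to all miRNA reads of its library. The low values step by whole reads, which placed the library totals between 2260645 and 5102405 reads, so that a read was worth 0.196 to 0.442 CPM. On the first principal component (45.5% of the variance), ADSC-Exos 1 stood at -6.26. This was on the side of the saline libraries (-3.67 to -2.03) and beyond them, away from ADSC-Exos 2 and 3 (5.15 and 9.78). The fold changes of the 4 rows are therefore given without ADSC-Exos 1 too. ADSC-Exos 1 and ADSC-Exos 3, at the ends of this component, also had the lowest and the highest read total. The part of depth in the component was not tested. The limma fit tested the 224 miRNAs whose mean reached 10 CPM, and 0 (0%) passed at an adjusted p of 0.05, 8 (3.57%) had an unadjusted p under 0.05, and 11 (4.91%) had groups that did not overlap. All 4 members passed the filter on low values.

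The 4 rows lay far apart in level. miR-199a-3p had the highest mean of the 224 miRNAs over the 6 libraries, at 113079 CPM, and it took 9.50% to 14.8% of the single libraries. miR-199a-5p stood in place 14 with a mean of 18837 CPM. The miR-214 arms stood low among these 224, above the 243 rows under the level filter, with miR-214-5p in place 156 at a mean of 37.8 CPM and miR-214-3p in place 186 at a mean of 21.0 CPM. The miR-199a arms made up 99.93% to 99.97% of the summed level of the 4 rows. That sum was 120911, 113480 and 164725 CPM in ADSC-Exos 1, 2 and 3, against 130790, 117972 and 143972 CPM in saline 1, 2 and 3. CPM is not divided by length, and the capture efficiency of single miRNA sequences was not measured here.

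**Figure D1:**
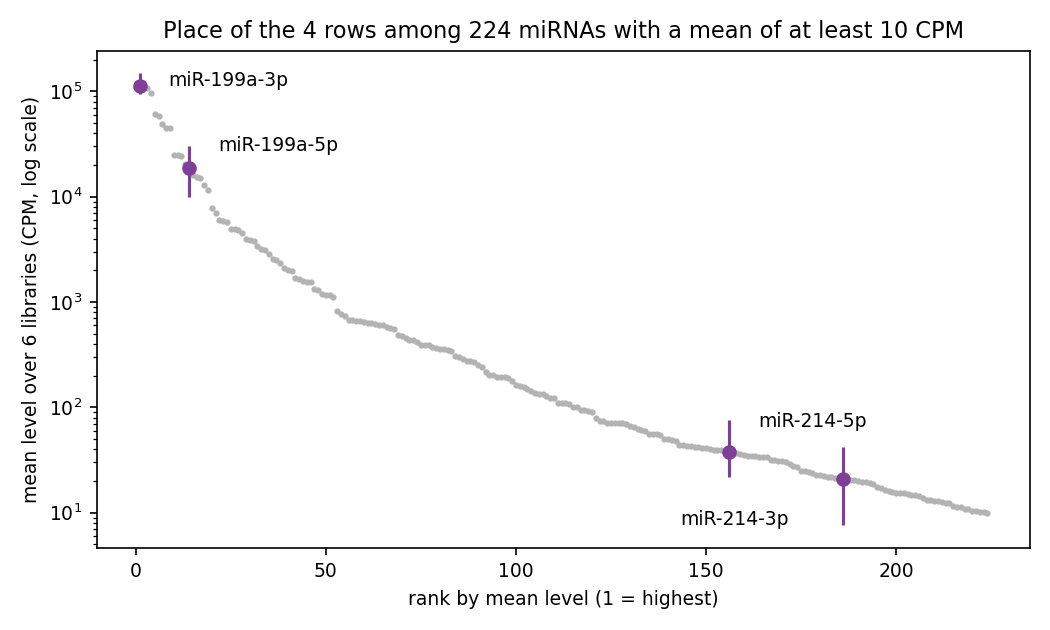
Mean level over the 6 libraries (CPM, log scale) against rank for the 224 tested miRNAs. Purple points mark the 4 rows and vertical lines their lowest to highest library. miR-199a-3p stands at the top and miR-199a-5p in place 14, while miR-214-5p and miR-214-3p stand in places 156 and 186.

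Neighbours in this order did not stand apart from the members. let-7i-5p, a member of the growth-restraining let-7 family, had the next lower mean after miR-199a-3p, at 110311 CPM, and miR-199a-3p was above it in 4 of 6 libraries. miR-199a-5p lay between miR-26a-5p (mean 20269 CPM) and miR-29a-3p, a repressor of collagen transcripts (mean 16188 CPM), and exceeded them in 2 and 3 of 6 libraries. miR-214-5p lay between miR-21-3p (mean 38.4 CPM) and miR-100-3p (mean 37.0 CPM) and was above each in 3 of 6 libraries. miR-214-3p lay between miR-28-5p (mean 21.4 CPM) and miR-130b-3p (mean 20.9 CPM) and was above each in 2 of 6 libraries.

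miR-199a-3p, an arm known for repressing MTOR and MET transcripts in human cells, was at 97496, 95046 and 148230 CPM in ADSC-Exos 1, 2 and 3, against 120853, 102925 and 113922 CPM in saline 1, 2 and 3. ADSC-Exos 3 was the highest of the 6 libraries and ADSC-Exos 1 and 2 the lowest, so the saline values lay inside the ADSC-Exos range. The ADSC-Exos libraries averaged 113591 ± 30024 CPM and the saline libraries 112567 ± 9041 CPM (SD, n = 3 each). limma put the log2 fold change at -0.015 ± 0.24 (SE), between 95% limits of -0.56 and 0.53 (adjusted p = 0.996). The interval spans 0.680-fold to 1.44-fold. It was the narrowest interval of the 4 rows. The sign of this fold change was positive under median-of-ratios scaling (0.049) and quantile scaling (0.0055), and without ADSC-Exos 1 (0.080), ADSC-Exos 2 (0.098) or saline 1 (0.038), and it was -0.22 without ADSC-Exos 3. A change in the number of cells that carry a miRNA and a change in its amount per cell cannot be told apart in such bulk tissue.

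miR-199a-5p, which represses the caveolin CAV1 in human lung fibroblasts, was at 23383, 18390 and 16382 CPM in ADSC-Exos 1, 2 and 3, against 9865, 15002 and 30001 CPM in saline 1, 2 and 3. Here the saline group held the lowest and the highest library, 3.04-fold apart, and all ADSC-Exos values lay between them. The ADSC-Exos libraries averaged 19385 ± 3605 CPM and the saline libraries 18289 ± 10463 CPM (SD, n = 3 each). limma put the log2 fold change at 0.22 ± 0.39 (SE), between 95% limits of -0.66 and 1.11 (adjusted p = 0.996). It was -0.15 without saline 1, 0.66 without saline 3 and 0.079 without ADSC-Exos 1, so the direction rested on saline 1.

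**Figure D2:**
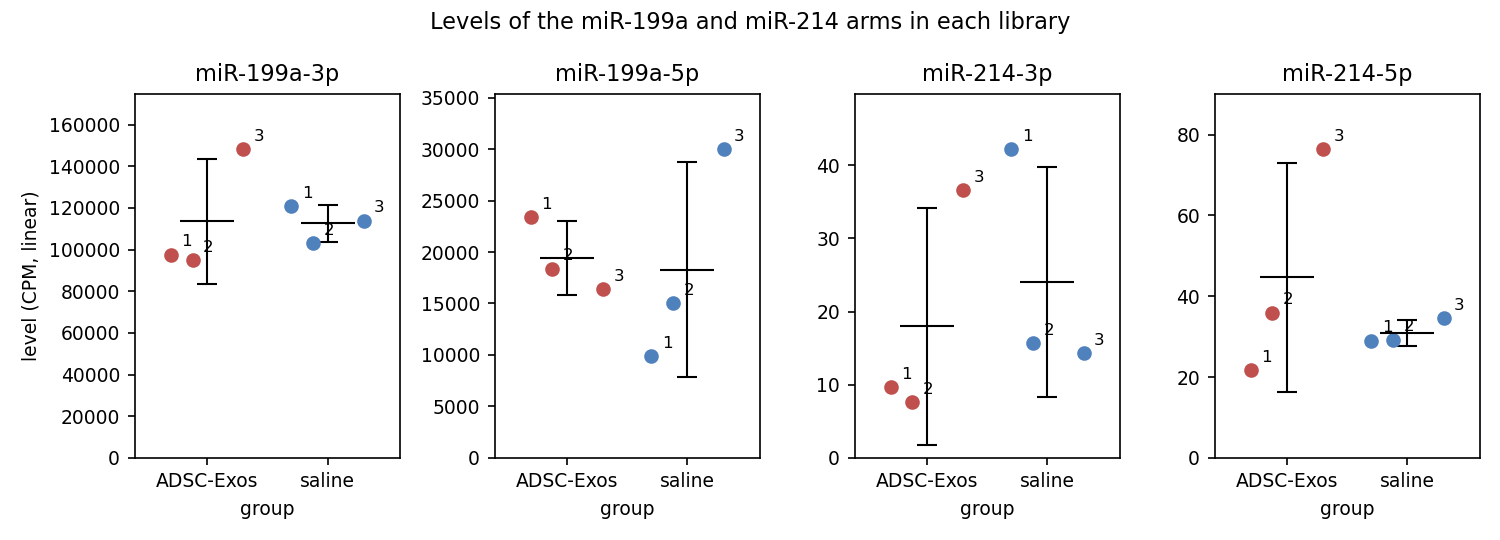
Level of each arm (CPM, linear axes that start at 0) in the ADSC-Exos libraries (red, left) and the saline libraries (blue, right), with library numbers beside the points and the mean ± SD in black (n = 3 each). The groups overlap in all 4 panels, and miR-199a-3p is at 95046 CPM or above where the miR-214 arms are at 76.4 CPM or below.

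miR-214-3p, an arm known for repressing EZH2 in mouse muscle cells, was at 9.7, 7.6 and 36.6 CPM in ADSC-Exos 1, 2 and 3, against 42.2, 15.7 and 14.3 CPM in saline 1, 2 and 3. ADSC-Exos 3 and saline 1 were high, and the other 4 libraries were low, with ADSC-Exos 1 and 2 below every saline library. These levels rested on 22, 28 and 187 reads in ADSC-Exos 1, 2 and 3, against 137, 45 and 56 reads in saline 1, 2 and 3. The exact 95% counting interval was 5.02 to 10.9 CPM in ADSC-Exos 2, the lowest library, and 31.6 to 42.3 CPM in ADSC-Exos 3. The spread inside the ADSC-Exos group was thus wider than counting error, which is all that such intervals cover. The ADSC-Exos libraries averaged 18.0 ± 16.2 CPM and the saline libraries 24.1 ± 15.7 CPM (SD, n = 3 each).

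limma put the log2 fold change of miR-214-3p at -0.56 ± 0.64 (SE), between 95% limits of -2.01 and 0.89 (adjusted p = 0.996). It kept its sign without each library in turn, but ran from -1.21 without ADSC-Exos 3 to -0.080 without saline 1, and was -0.31 without ADSC-Exos 1, -0.15 without ADSC-Exos 2, -0.77 without saline 2 and -0.83 without saline 3. The adjusted p stayed at 0.947 or above in these fits. The spread of miR-214-3p within groups, 1.00 on the log2 scale, was in place 16 of the 224 miRNAs from the widest, where the median was 0.46. It was wider than that of 28 of the 30 miRNAs nearest to it in mean level. For miR-199a-3p the same measure was 0.27, which was narrower than in 82.1% of the miRNAs, and it was 0.60 for miR-199a-5p and 0.64 for miR-214-5p.

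miR-214-5p, the other arm of that hairpin, was at 21.7, 35.9 and 76.4 CPM in ADSC-Exos 1, 2 and 3, against 29.0, 29.2 and 34.5 CPM in saline 1, 2 and 3. The saline libraries were close together, 1.19-fold from lowest to highest, whereas the ADSC-Exos libraries were 3.52-fold apart and lay on both sides of them. It had 49, 133 and 390 reads in ADSC-Exos 1, 2 and 3, against 94, 84 and 135 reads in saline 1, 2 and 3. The ADSC-Exos libraries averaged 44.7 ± 28.4 CPM and the saline libraries 30.9 ± 3.12 CPM (SD, n = 3 each). limma put the log2 fold change at 0.34 ± 0.46 (SE), between 95% limits of -0.71 and 1.38 (adjusted p = 0.996). It was -0.14 without ADSC-Exos 3 and 0.75 without ADSC-Exos 1, where the adjusted p in limma was 0.484.

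Of the 4 rows, 0 passed the adjusted test, against a background of 0%, 0 had an unadjusted p under 0.05, against 3.57%, and 0 had groups without overlap, against 4.91%. Exact two-sided permutation tests of the 20 arrangements gave p = 1 for miR-199a-3p, 0.7 for miR-199a-5p, 0.5 for miR-214-3p and 0.7 for miR-214-5p, where 3 against 3 libraries cannot give less than 0.1. By the size of the fold change the rows stood in places 215, 115, 26 and 66 of 224, in the same order of names. The intervals do not show the groups to be alike. For miR-214-3p the interval reaches from 0.249-fold to 1.86-fold, and for miR-214-5p from 0.613-fold to 2.60-fold.

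**Figure D3:**
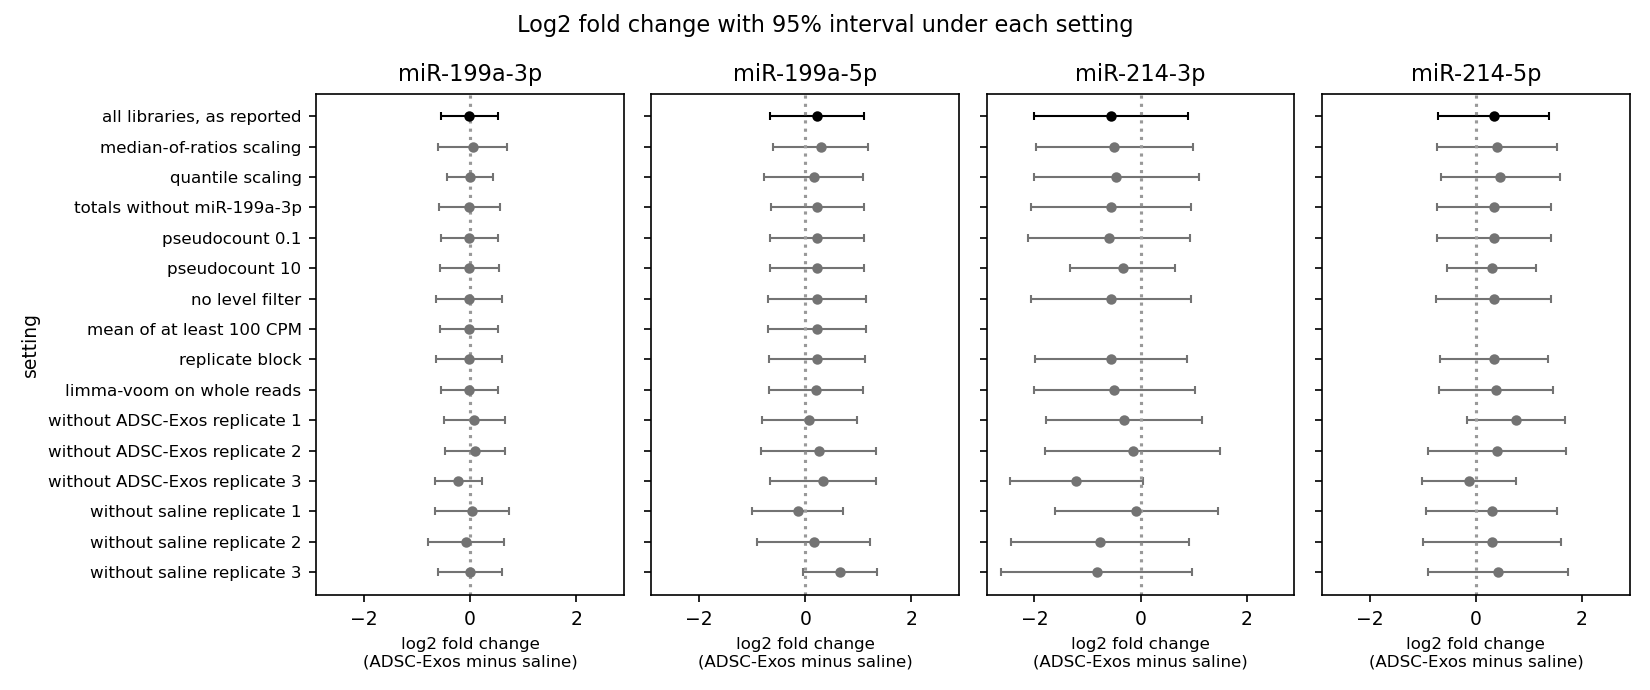
Log2 fold change (ADSC-Exos minus saline) of each arm with its 95% interval, for all libraries as reported (black) and under each alternative (grey). The miR-214 arms have no value at a mean of at least 100 CPM because they lie under that filter. No fit passes the adjusted threshold for any of the 4 arms. The point of miR-199a-3p crosses 0 under median-of-ratios and quantile scaling and in leave-outs, that of miR-199a-5p without saline replicate 1, and that of miR-214-5p without ADSC-Exos replicate 3.

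miR-199a and miR-214 differed in which arm was the more abundant. The miR-199a rows can pool reads of MIR199A-1 and MIR199A-2, so their arm share may not be that of a single hairpin. In miR-199a the 3p arm exceeded the 5p arm in 6 of 6 libraries, and it made up 80.7%, 83.8% and 90.0% of the reads of both arms in ADSC-Exos 1, 2 and 3, against 92.5%, 87.3% and 79.2% in saline 1, 2 and 3. In miR-214 the 3p arm was the more abundant in 1 of 6 libraries, saline 1. Its share there was 59.3%, with an exact (Clopper-Pearson) 95% interval of 52.7% to 65.7%. In the others it was 31.0%, 17.4% and 32.4% in ADSC-Exos 1, 2 and 3, against 34.9% and 29.3% in saline 2 and 3. Of 57 hairpins with both arms among the tested miRNAs, 16 had the higher value in the 3p arm in every library, 34 in the 5p arm, and 7, miR-214 among them, differed between libraries.

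**Figure D4:**
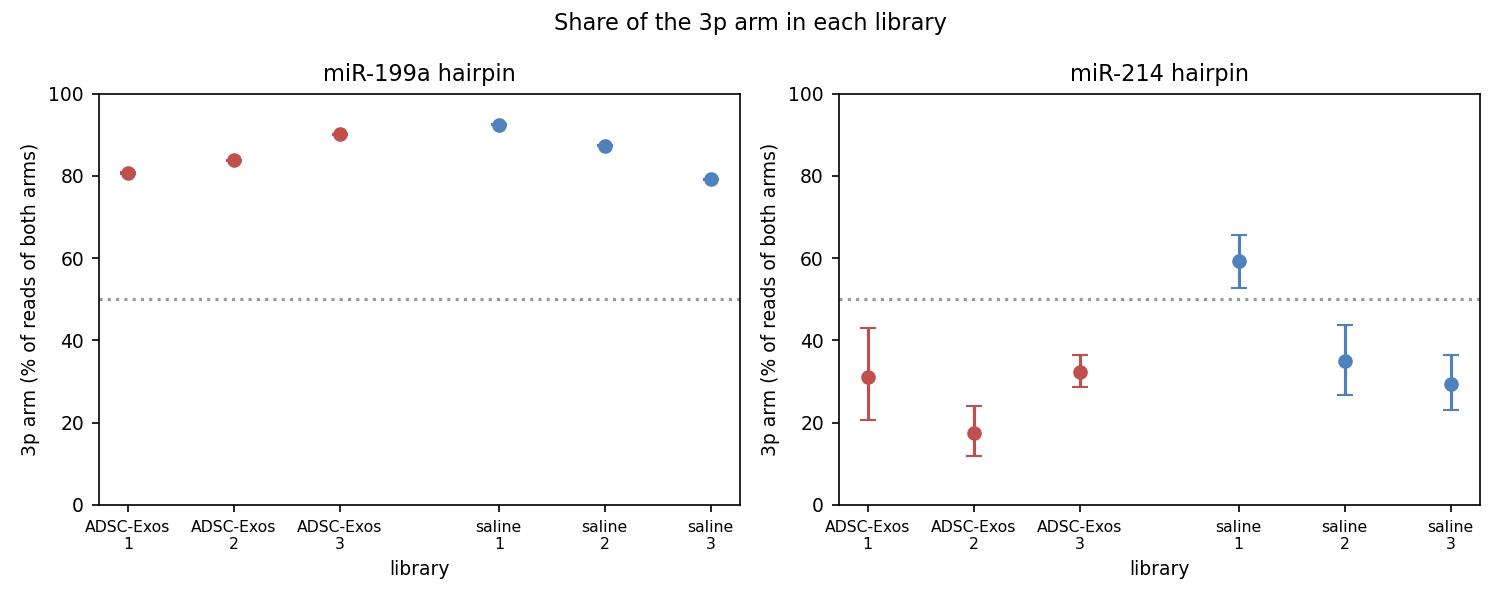
Share of the 3p arm in the reads of both arms (%, 0 to 100) in each library, ADSC-Exos in red on the left and saline in blue on the right. Bars are exact 95% intervals that cover counting error only, and the dotted line marks 50%. The share lies between 79.2% and 92.5% for miR-199a and between 17.4% and 59.3% for miR-214, where saline 1 is the single library above the line.

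A ratio of arms within a library does not depend on how the library was scaled. The miR-199a-3p to miR-199a-5p ratio was 4.17, 5.17 and 9.05 in ADSC-Exos 1, 2 and 3, against 12.3, 6.86 and 3.80 in saline 1, 2 and 3. The groups overlapped, and the difference of mean log2 ratios was -0.24. The miR-214-3p to miR-214-5p ratio was 0.447, 0.212 and 0.479 in ADSC-Exos 1, 2 and 3, against 1.46, 0.538 and 0.414 in saline 1, 2 and 3. Saline 1 was the highest and ADSC-Exos 2 the lowest, and the difference of mean log2 ratios was -0.95. Exact two-sided permutation tests of 3 against 3 libraries gave p = 0.8 for miR-199a and 0.3 for miR-214, and 0.9 and 0.75 after adjustment over the 6 ratios compared. The log2 arm ratio of miR-214 varied over the libraries with an SD of 0.90, place 5 of the 57 hairpins from the widest, and that of miR-199a with an SD of 0.66, place 20, where the median was 0.58. Without saline 1 the miR-214 difference was -0.40, and without ADSC-Exos 1 it was -1.11.

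The miR-199a and miR-214 arms did not keep a constant ratio to each other across the libraries. The miR-199a rows can hold reads of both MIR199A-1 and MIR199A-2, so these ratios do not describe the shared transcript alone. The ratio of miR-199a-3p to miR-214-5p varied least, from 1940 in ADSC-Exos 3 to 4493 in ADSC-Exos 1, with the saline libraries between 3302 and 4167. The ratio of miR-199a-3p to miR-214-3p was 10051, 12506 and 4050 in ADSC-Exos 1, 2 and 3, against 2864, 6556 and 7967 in saline 1, 2 and 3. The ratio of miR-199a-5p to miR-214-3p had the widest range, 10.4-fold, with 2411, 2420 and 448 in ADSC-Exos 1, 2 and 3, against 234, 956 and 2098 in saline 1, 2 and 3. Saline 1 and ADSC-Exos 3 had the lowest values of this ratio, since they combined the highest miR-214-3p with the lowest and the third lowest miR-199a-5p. The differences of mean log2 ratios were -0.36, 0.59 and 0.83 in this order, each with an exact two-sided permutation p of 0.5 (3 against 3 libraries) and 0.75 after adjustment. The 0.59 of miR-199a-3p to miR-214-3p was 0.14 without saline 1 and 1.08 without ADSC-Exos 3, and the -0.36 of miR-199a-3p to miR-214-5p was -0.081 without ADSC-Exos 3 and -0.69 without ADSC-Exos 1. The remaining ratio, miR-199a-5p to miR-214-5p, differed by -0.12 with an exact permutation p of 0.9 (3 against 3 libraries).

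Likeness of pattern was measured as the SD over the 6 libraries of the difference in log2(CPM + 1) between 2 miRNAs. Far above 1 CPM this is close to the SD of their log2 ratio, which is 0 at a constant ratio. For low miRNAs the added 1 makes it differ, as for the miR-214 arms (0.85, against 0.90 for the log2 ratio). It was computed against each of the other 223 miRNAs and is a description with no test, since the nearest of so many will be near in part by selection, and values of a library share its depth and scaling. miR-199a-3p lay nearest to miR-148a-3p (0.11), miR-889-3p (0.11) and miR-379-5p (0.13), where the median distance was 0.54. miR-148a-3p was among its nearest 3 in all 7 alternatives, namely a pseudocount of 10 and each library left out, and the others in 5 of 7. miR-889 and miR-379 belong to the imprinted DLK1-DIO3 miRNA cluster. miR-148a-3p was at 21689, 22761 and 34634 CPM in ADSC-Exos 1, 2 and 3, against 25607, 21698 and 22268 CPM in saline 1, 2 and 3, so ADSC-Exos 3 was the highest library here too.

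miR-199a-5p lay nearest to miR-223-5p (0.15), an arm of a myeloid-cell hairpin, then to miR-497-5p of the miR-15/16 seed family (0.21) and miR-532-5p (0.22), with a median distance of 0.68. These were among its nearest 3 in 6, 5 and 3 of the 7 alternatives. miR-223-5p was low, at 11.1, 10 and 8.4 CPM in ADSC-Exos 1, 2 and 3, against 5.2, 9.7 and 17.4 CPM in saline 1, 2 and 3. Counting error at such levels was not separated from its distance. miR-497-5p was at 814, 673 and 483 CPM in ADSC-Exos 1, 2 and 3, against 389, 584 and 844 CPM in saline 1, 2 and 3. miR-214-5p lay nearest to miR-21-5p (0.20), a miRNA induced in many fibrotic tissues, then to miR-350-3p (0.28) and miR-30b-5p (0.35), with a median distance of 0.79. miR-21-5p was among its nearest 3 in 6 of 7 alternatives and fell to place 12 in the other, miR-350-3p in 5 of 7, and miR-30b-5p in 2 of 7 with a lowest place of 24. The level of miR-21-5p was 17257, 27894 and 46246 CPM in ADSC-Exos 1, 2 and 3, against 15926, 19146 and 22678 CPM in saline 1, 2 and 3, for which limma gave a log2 fold change of 0.56 ± 0.36 (SE; adjusted p = 0.996). miR-214-3p lay farther from its nearest miRNAs, which were miR-135b-5p (0.38), miR-125b-3p (0.53) and miR-381-3p (0.54), with a median distance of 1.08. These were among its nearest 3 in 6, 5 and 3 of the 7 alternatives.

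**Figure D5:**
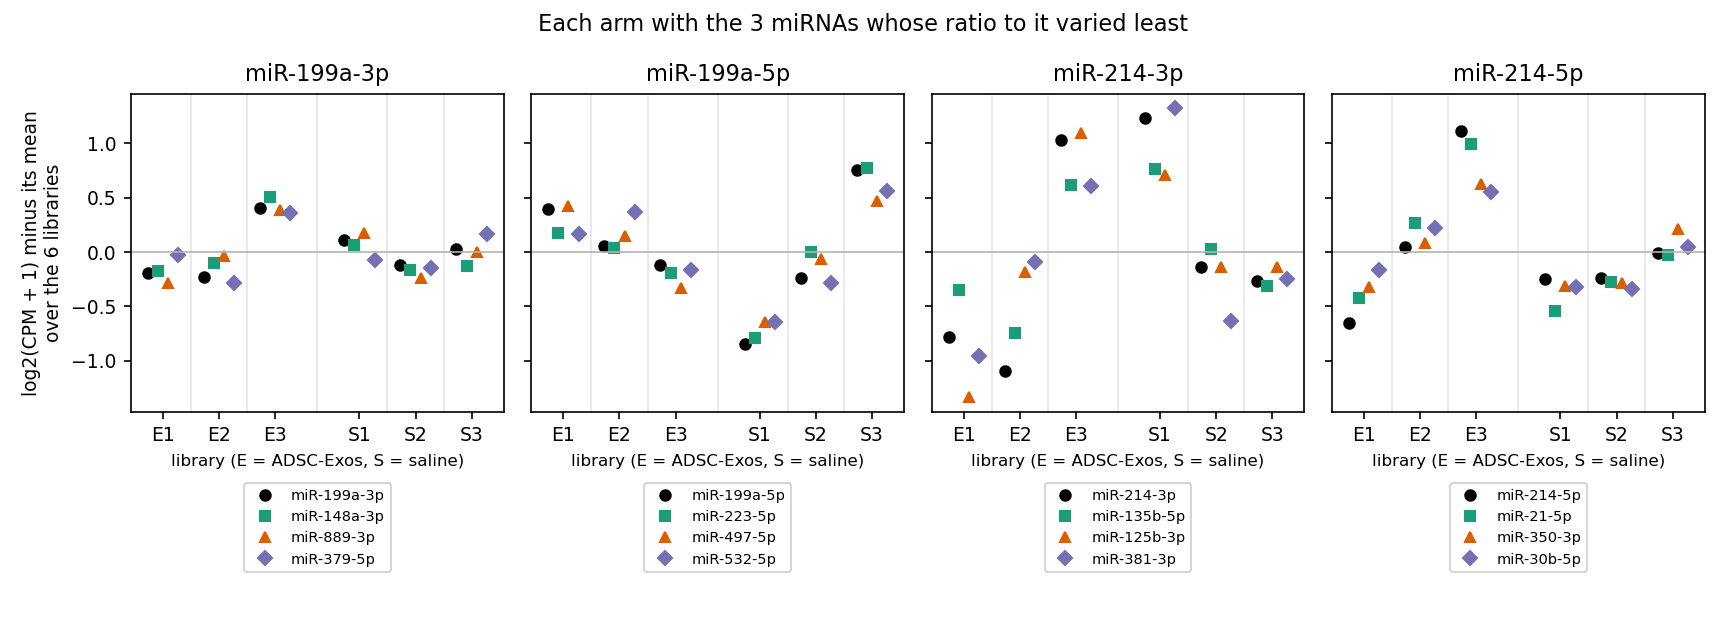
Log2(CPM + 1) minus its mean over the 6 libraries for each arm (black circles) and the 3 miRNAs nearest to it by likeness on this scale (coloured symbols), by library. Replicates have no order. miR-199a-3p and its nearest miRNAs are highest in ADSC-Exos 3, miR-199a-5p and its nearest are lowest in saline 1 and highest in saline 3, and miR-214-5p follows miR-21-5p to a high value in ADSC-Exos 3.

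The members were not each other's nearest miRNAs. The closest pair was miR-199a-3p and miR-214-5p at 0.43, where miR-214-5p held place 72 among the 223 seen from miR-199a-3p and miR-199a-3p held place 15 seen from miR-214-5p. The arms of miR-214 were 0.85 apart and those of miR-199a 0.66 apart. The widest pair was miR-199a-5p and miR-214-3p at 1.37, in place 214 of 223 seen from miR-199a-5p.

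A list of other miRNAs that are rich in fibroblasts and mesenchyme took miR-22, miR-24, miR-99a, miR-100, miR-125b, miR-127, miR-152, miR-379 and others, without the members. Some, such as miR-379 of the imprinted DLK1-DIO3 cluster, may not vary separately from other rows. The list held 32 rows. Of these 0 were at 0 in every library and 8 were at 0 in at least 1, and their sum was 29853 to 97583 CPM in ADSC-Exos and 67046 to 105651 CPM in saline. Of its 18 tested rows 5 had higher and 13 lower means in ADSC-Exos and 0 passed, and the median log2 fold change was -0.14. This median was -0.076 under median-of-ratios and -0.024 under quantile scaling (7 higher, 11 lower), the rows divided into 1 higher and 17 lower without saline 2, and into 8 and 10 (median -0.073) without saline 3. Over all 224 miRNAs 88 were higher and 136 lower, the median being -0.082. They divided into 105 and 119 under median-of-ratios scaling (median -0.019), 109 and 115 under quantile scaling (median -0.0043), and 113 and 109 of 222 without ADSC-Exos 3 (median 0.0081). miR-125b-5p, the most abundant of the list, was at 66026, 81450 and 13018 CPM in ADSC-Exos 1, 2 and 3, against 48309, 68069 and 85151 CPM in saline 1, 2 and 3. The list sum was 84210, 97583 and 29853 CPM in ADSC-Exos 1, 2 and 3, against 67046, 86446 and 105651 CPM in saline 1, 2 and 3. Its range thus came mostly from miR-125b-5p and does not describe the other rows. miR-125b-5p was thus lowest in ADSC-Exos 3, the library in which miR-199a-3p and miR-214-5p were highest. The list did not move as a whole there. miR-24-3p was also lowest in ADSC-Exos 3, at 5021 CPM. miR-379-5p, named above as near to miR-199a-3p and also on this list, was highest there, at 1466 CPM. For miR-24-3p limma gave a log2 fold change of -0.16 ± 0.25 (SE; adjusted p = 0.996). The levels in this bulk tissue do not tell which cells held miR-199a or miR-214.

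Among miRNAs with reported pro-fibrotic roles, 8 rows were tested and 0 passed. The mean was higher in ADSC-Exos for 5 and lower for 3, and the median of their log2 fold changes was 0.23. Under median-of-ratios and quantile scaling 7 were higher and 1 lower, with medians of 0.29 and 0.37. Its most abundant members were miR-21-5p, given above, and miR-155-5p, a miRNA of activated leukocytes, at 0.21 ± 0.41 (SE). The anti-fibrotic list, by reported role, had 20 tested rows and 0 passed, 13 being higher and 7 lower (median 0.11). Its most abundant members, miR-26a-5p and miR-29a-3p, had log2 fold changes of 0.12 ± 0.32 and 0.55 ± 0.33 (SE). Under quantile scaling the anti-fibrotic rows divided into 10 higher and 10 lower, with a median of 0.057, and without ADSC-Exos 2 the median was -0.013.

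Markers of other cell types in the ear varied between libraries beside the members, and 0 of them passed. The 4 smooth muscle rows (miR-143 and miR-145, contractile-cell miRNAs) summed to 14505 to 67009 CPM in ADSC-Exos and 38229 to 70397 CPM in saline, and 4 of 4 were lower at a median log2 fold change of -0.27, but 0.15 without ADSC-Exos 1. The 4 cartilage rows (miR-140 and miR-455) summed to 1461 to 7602 CPM in ADSC-Exos and 2110 to 4652 CPM in saline, with 4 of 4 higher and a median of 0.25. This median was 0.92 without ADSC-Exos 1, but -0.17, -0.060 and -0.063 without ADSC-Exos 2, ADSC-Exos 3 and saline 1. The 4 tested erythroid rows (miR-144, miR-451 and miR-486) had 4 of 4 lower and a median of -1.49, and the 5 rows of that list summed to 109 to 472 CPM in ADSC-Exos and 443 to 853 CPM in saline. Without ADSC-Exos 1 this median was -2.12 and 3 of the 4 passed in limma. That library was singled out because it stood on the side of saline in these same data, so the calls without it are not separate support. Not every difference widened without it, as the smooth muscle median shows.

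The 6 epithelial rows (miR-141, miR-200c and miR-205) summed to 7913 to 12297 CPM in ADSC-Exos and 8140 to 11335 CPM in saline, with 4 higher and 2 lower and a median of 0.30, or 0.070 without ADSC-Exos 1. The 7 skeletal muscle rows, such as miR-1-3p, summed to 612 to 2376 CPM in ADSC-Exos and 1454 to 2135 CPM in saline, and 3 of 3 tested rows were lower (median -0.70, or 0.080 without ADSC-Exos 1). Among them miR-206-3p, a skeletal muscle miRNA, was at 1.8, 1.6 and 1.2 CPM in ADSC-Exos 1, 2 and 3, against 131.5, 145.8 and 4.6 CPM in saline 1, 2 and 3. limma put its log2 fold change at -4.24 ± 1.10 (SE; adjusted p = 0.804), and it passed without saline 3 (adjusted p = 0.000445). Saline 3 was the saline library nearest to the ADSC-Exos values, so leaving it out favours a call, which is not separate support. The 9 leukocyte rows (miR-142, miR-146a, miR-150, miR-155 and miR-223) summed to 6664 to 10115 CPM in ADSC-Exos and 7961 to 10091 CPM in saline, and of 7 tested 2 were higher and 5 lower (median -0.26, or -0.57 without ADSC-Exos 1 and -0.096 without saline 3). No row of these 6 lists was at 0 in every library. ADSC-Exos 1 had the lowest smooth muscle, cartilage and skeletal muscle sums of the 6 libraries and also the lowest miR-214-5p. The part of such markers in the levels of miR-199a and miR-214 was not tested.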

How the data were processed

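Small RNA libraries of 6 scar samples, 3 ADSC-Exos and 3 saline, were grouped by sample title. The authors deposited CPM values of 467 mature miRNAs to 1 decimal, and each library sums to between 999998 and 1000007. The exception was 1 value, miR-194-3p in saline 2 (1.16 CPM). Without saying what each did, the submitters' processing notes list STAR 2.7.6a, HTSeq 2.0.3, DESeq2 1.30.1, Trimmomatic 0.40 and FastQC 1.0.0. No genome build, miRNA annotation or handling of reads shared by near-identical miRNAs is given in the sources used here.

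Library totals were taken from the steps of the low values, with the lowest as 1 read, and 2378 of 2382 values above 0 then were whole reads within 0.05 CPM. The other 4 were miR-194-3p in saline 2 and miR-215-5p in ADSC-Exos 1, ADSC-Exos 2 and saline 2. In 1 library 2 totals were tied, and the lower was used. The main test was limma 3.58.1 (R 4.3.3, trend) on log2(CPM + 1), applied where the mean reached 10 CPM, two-sided, Benjamini-Hochberg over all 224 tested. This scale makes the fold change of a low miRNA smaller than that of its CPM. Ratios were compared by exact permutation tests (scipy 1.17.1), adjusted over 6 ratios and not 3, as the name rule also took miR-199a-5p.

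miRNAs were named as members, the 3 nearest by likeness, neighbours in mean level and up to 2 of the most abundant tested rows of each list, besides any that passed the adjusted threshold. The members and lists were chosen with earlier results of these data known. The settings varied were other scalings, pseudocounts of 0.1 and 10, other level filters, the replicate number as a block, limma-voom on whole reads and each library left out, and those of miR-199a-5p were added after its row was seen. No further model was fitted to these reads. Mature sequences were not used here.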

Additional observations from a re-analysis of the deposited data

How the results depend on the processing

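No alternative brought any of the 4 arms past the adjusted threshold. The log2 fold change of miR-199a-3p turned to 0.049 under median-of-ratios scaling and to 0.0055 under quantile scaling, and ran from -0.22 to 0.098 over the libraries left out. Over the same leave-outs it ran from -0.15 to 0.66 for miR-199a-5p and from -0.14 to 0.75 for miR-214-5p, and the differences of log2 ratios from -0.66 to 0.18 for miR-199a-3p to miR-199a-5p, from -0.040 to 1.64 for miR-199a-5p to miR-214-3p and from -0.69 to 0.48 for miR-199a-5p to miR-214-5p. The remaining alternatives of these results, and all of the other 4, kept their direction. The number of miRNAs called over the whole table was 0 to 4 over the leave-outs, with 4 without ADSC-Exos 1 (miR-144-3p, miR-194-3p, miR-451-5p and miR-486-5p), 1 without saline 3 (miR-206-3p) and 0 in every other fit, where the cause was not tested. The row of miR-194-3p holds a value off the whole-read steps, 1.16 CPM in saline 2. ADSC-Exos 1 was the ADSC-Exos library that stood on the side of saline in these same data, so the calls without it are not separate support. Saline 3 was the saline library nearest to the ADSC-Exos values of miR-206-3p, so the call without saline 3 is not separate support either. At an unadjusted p under 0.05 the fits called between 2 and 28. With the replicate number as a block the log2 fold changes were as reported (-0.56 for miR-214-3p) and 0 miRNAs passed in limma. The sources do not say whether same-numbered libraries are pairs. Deviations from the group means of same-numbered libraries correlated at -0.13 to -0.018, and 0 of 6 libraries correlated best with their own number. Deviations of 3 libraries sum to 0 within a group, so these correlations depend on each other and cannot exclude pairing. Depth limits the miR-214 arms, which rest on 22 to 390 reads, and the miR-214 arms could not be fitted at a mean of at least 100 CPM.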
